A study of Mus musculus with 17 samples.

Results

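Kidneys of dapagliflozin-treated db/db mice (Dapa, 6 mice, numbered 7 to 12) were compared with kidneys of healthy mice (Ctrl, 5 mice, numbered 1 to 5), to describe where the open chromatin of the treated diabetic kidney still differed from that of the healthy kidney. Accessibility had been measured by ATAC-seq, in which a transposase cuts and tags open DNA, on 20000 cells per library from whole kidney. The Ctrl mice were male C57BL/6 mice given saline. The Dapa mice were male db/db mice of a BKS line, in which a mutation of the leptin receptor gene Lepr leads to obesity and type 2 diabetes, and received dapagliflozin by oral gavage at 1.0 mg/kg/day for 6 weeks. Mice of all groups were 8 weeks old at the start. Strain, Lepr genotype, diabetes and drug all changed together between Ctrl and Dapa and cannot be told apart here. A group of saline-treated db/db mice (Case, 6 mice) was only looked up in the same regions: it shares the Ctrl mice as its reference, and its values are given side by side without a test. The 11 libraries compared are part of a series of 17.

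Each library was available as its list of MACS2 summits, the points of highest signal of called peaks, with the score of MACS2 (−log10 of a p- or q-value, which of them is not given) and no read counts, so the depth of sequencing is unknown. The lists held 32846 to 56659 summits, and the 29702 summits with the highest scores were kept from each. Kept summits were extended by 250 bp on both sides and merged over the 11 libraries into 84746 regions with a median width of 503 bp. Of these, 42217 (49.8%) held a summit in 1 library and 10534 (12.4%) in all 11. A region was described by presence (a kept summit in the mouse or not) and by its rank percentile, the place of its summit score within the list of that mouse, on a scale where 100 is the strongest summit. The percentile is relative: a region can move up only as others move down, and it is not a number of reads. The median kept score was 6.72 to 9.98 in Ctrl and 5.89 to 7.82 in Dapa. A lower score at the same list length is a value that moved with the groups, and its part in the results below was not tested. Markers of the proximal tubule were present: of 20 proximal tubule genes, each Ctrl mouse had kept summits less than 1 kb from a start of 16 to 18, and each Dapa mouse of 13 to 18. Markers of later segments were partly absent. No such summit was found in any Ctrl or Dapa mouse for 6 of 18 loop and distal tubule genes and 7 of 18 collecting duct genes, Slc12a1 and Aqp2 among them.

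Open chromatin marks promoters, which lie at transcription starts, and enhancers, which lie in introns or between genes and carry short motifs read by transcription factors. In the proximal tubule, the main cell type of the kidney by mass, the factors HNF1 and HNF4 act at many enhancers, and PPARA drives the genes of fatty acid oxidation on which these cells depend for energy. Dapagliflozin inhibits SGLT2, the product of Slc5a2, which takes up most of the filtered glucose in this segment, while SGLT1, the product of Slc5a1, takes up the rest. In db/db kidneys glucose and fatty acids are in excess, and interferon, NF-kB, injury and fibrosis genes are those usually followed as diabetic kidney disease develops.

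Regions from both readouts are shown here by the sequence at their summits, read from mm10 (GRCm38). The Mlf1, Tspan13 and Clock sequences are the 200 bases before the transcription start, and the others are 201 bases with the summit in the middle, the window in which motif percentages were counted for every region. The opening 3 are the windows of 3 regions that ranked higher in Dapa, shown because they are repeats. The next 3 are regions with a summit in every Ctrl and no Dapa mouse, and the last 3 ranked lower in Dapa. Capitals mark every match, on either strand, to the letters of 13 motifs, one of them AP-1 (TGANTCA). Longer ones were HNF1 GTTAATNAT, HNF4 and PPAR direct repeat AGGNCAAAG, HNF4 CAAAGTCCA, CTCF AGGGGGCGC, SP and KLF GGGGCGGGG, NRF1 GCGCATGCG, NFY CCAATCAG, ESRR TCAAGGTCA, NF-kB GGGANTTCC, IRF GAAANNGAA and CRE TGACGTCA. The last was ETS, searched as CCGGAAG. The direct repeat and the HNF4 motif overlap in part of their letters.
Itgad intron, chr7:128187747-128187947, plus strand: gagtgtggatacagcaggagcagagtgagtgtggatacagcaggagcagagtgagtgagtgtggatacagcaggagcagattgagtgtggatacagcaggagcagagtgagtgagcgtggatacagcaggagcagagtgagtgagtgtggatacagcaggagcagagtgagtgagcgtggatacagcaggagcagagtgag
Oxgr1 intron, chr14:120032258-120032458, plus strand: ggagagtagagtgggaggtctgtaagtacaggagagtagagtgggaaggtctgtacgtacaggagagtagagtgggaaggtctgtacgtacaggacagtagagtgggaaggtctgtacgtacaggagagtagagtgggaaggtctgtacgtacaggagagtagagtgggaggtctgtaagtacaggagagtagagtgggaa
Gm11168 promoter, chr9:3003320-3003520, plus strand: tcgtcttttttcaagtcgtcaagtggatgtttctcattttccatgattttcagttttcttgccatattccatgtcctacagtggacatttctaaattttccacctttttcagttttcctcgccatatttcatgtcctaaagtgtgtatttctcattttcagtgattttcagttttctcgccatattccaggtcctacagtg
Glra3 intron, chr8:56094488-56094688, plus strand: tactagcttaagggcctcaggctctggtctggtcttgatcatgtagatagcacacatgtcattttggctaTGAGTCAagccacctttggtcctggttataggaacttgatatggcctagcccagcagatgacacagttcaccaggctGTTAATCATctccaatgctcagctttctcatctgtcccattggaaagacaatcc
Sh2d4b intron, chr14:40830135-40830335, plus strand: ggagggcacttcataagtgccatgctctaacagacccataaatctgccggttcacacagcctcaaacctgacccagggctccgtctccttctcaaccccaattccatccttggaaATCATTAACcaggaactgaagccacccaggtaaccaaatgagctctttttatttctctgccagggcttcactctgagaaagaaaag
Mlf1 promoter, chr3:67373897-67374096, plus strand: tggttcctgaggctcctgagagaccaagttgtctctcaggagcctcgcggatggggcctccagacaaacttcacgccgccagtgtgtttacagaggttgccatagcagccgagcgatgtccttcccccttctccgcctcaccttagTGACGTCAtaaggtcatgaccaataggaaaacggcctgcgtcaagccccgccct
Dcdc2a intron, chr13:25115584-25115784, plus strand: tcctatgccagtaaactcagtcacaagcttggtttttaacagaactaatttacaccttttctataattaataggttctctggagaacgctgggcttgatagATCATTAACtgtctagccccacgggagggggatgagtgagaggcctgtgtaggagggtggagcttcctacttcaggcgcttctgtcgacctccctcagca
Tspan13 promoter, chr12:36042501-36042700, minus strand: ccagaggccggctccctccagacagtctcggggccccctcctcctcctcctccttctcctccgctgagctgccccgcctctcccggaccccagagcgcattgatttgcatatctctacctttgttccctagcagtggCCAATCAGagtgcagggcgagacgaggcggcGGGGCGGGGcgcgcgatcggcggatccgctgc
Clock promoter, chr5:76304793-76304992, minus strand: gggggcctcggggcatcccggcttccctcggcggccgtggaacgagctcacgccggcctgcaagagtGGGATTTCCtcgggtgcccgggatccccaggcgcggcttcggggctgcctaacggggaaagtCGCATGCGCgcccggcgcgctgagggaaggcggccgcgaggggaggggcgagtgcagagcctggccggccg
The Itgad window matched itself best at a shift of 30 bases (77.2% of bases identical) and the Oxgr1 window at 31 bases (76.5%), as tandem repeats do. The Gm11168 window matched itself best at 58 bases (54.5%). The Glra3, Sh2d4b and Dcdc2a windows hold the HNF1 letters, the Glra3 window also AP-1, and the Mlf1 window CRE. The Tspan13 window holds SP and KLF and NFY, and the Clock window NRF1 and NF-kB. A match is a run of letters and not a binding site.

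The promoter share of the summits was lower in most Dapa mice than in Ctrl, and the difference did not pass the adjustment. Summits within 1 kb of a transcription start made up 43.9%, 43.7%, 44.0%, 44.3% and 43.9% of the lists of Ctrl 1 to 5, against 40.0% to 43.8% in Dapa (median 42.2%), and 5 of 6 Dapa mice lay below every Ctrl mouse. The means were 44.0% ± 0.223 (SD, n = 5) and 42.0% ± 1.502 (SD, n = 6), a difference of −1.91 percentage points (exact two-sided permutation test over 462 relabellings, p = 0.0173; adjusted over 6 measures, 0.0844). With every deposited summit kept, the difference was 0.674, of the opposite sign (exact permutation test, adjusted p = 0.764). With promoters taken out to 3 kb from a start it was −1.42 (exact permutation test, adjusted p = 0.315), and with the first 14851 summits of each list −3.13 (exact permutation test, adjusted p = 0.0649). Without Dapa 11 it was −2.26 (exact permutation test, adjusted p = 0.0476).

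The share of summits in regions found in no other library was 8.87% ± 3.02 (SD, n = 5) in Ctrl and 16.3% ± 5.69 (SD, n = 6) in Dapa (exact permutation test, p = 0.0281, adjusted p = 0.0844). It ranged from 5.97% to 12.8% in Ctrl and from 8.26% to 22.0% in Dapa, and 4 of the 6 Dapa mice exceeded all Ctrl mice. The difference was 7.46 percentage points. It was 2.46 with every deposited summit kept (exact permutation test, adjusted p = 0.764), 3.62 with the first 14851 summits of each list (adjusted p = 0.05195 by the exact test) and 9.20 without Dapa 11 (adjusted p = 0.0476 by the exact test). None of the 6 measures passed the adjustment. The intronic share was 28.0% and 28.4% (exact permutation test, p = 0.381). The intergenic share was 24.8% and 26.2% (p = 0.165 by the exact test), and the median GC content around the summit was 54.8% and 54.7% (p = 0.844 by the exact test). The share of summits in regions common to all 11 libraries was 36.7% and 37.1% (p = 0.21 by the exact test). Of the variance in rank percentile over the regions common to all 11 libraries, 18.3% lay on a principal component on which the Ctrl mice stood at −759 to −324 and the Dapa mice at 33.5 to 890. Another 12.8% lay on a component on which Dapa 8 stood apart at 1213.

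**Figure D1:**
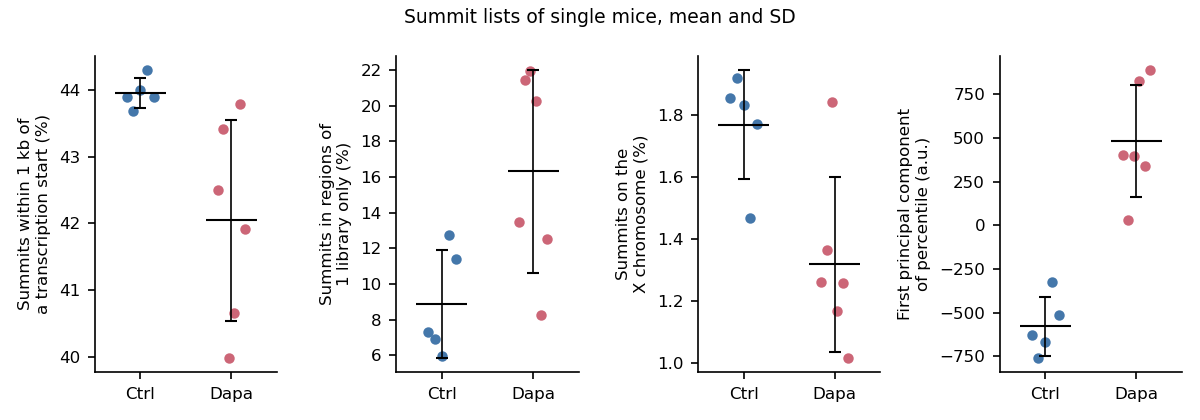
Values per mouse in Ctrl and Dapa: promoter share of summits (%), share of summits in regions of 1 library (%), share on the X chromosome (%), and the place on principal component 1; bars are the mean and SD. Of the 6 Dapa mice, 5 have a lower promoter share than every Ctrl mouse, and the groups do not overlap on the component.

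No region differed in presence after adjustment (Fisher's exact test, 11025 regions that could reach an unadjusted p under 0.05, smallest adjusted p = 0.188, with Benjamini-Hochberg adjustment over those regions). At an unadjusted p under 0.05, 135 regions (1.22% of those tested) were present more often in Dapa and 734 (6.66%) less often. A summit in every Dapa and no Ctrl mouse was found in 17 regions (0.154%), and the reverse in 110 regions (0.998%), each at the smallest p this design allows, 0.00216. These counts rest on single mice: without Ctrl 4, regions in every Ctrl and no Dapa mouse numbered 305 and those less often present 1516, and without Ctrl 5 they numbered 206 and 1304. The counts were also higher without each of the other mice, as fewer mice have to share a summit, and are given with the limits at the end. Of the 110 regions of Ctrl, 50 had no summit in any Case mouse either and 31 had one in 1 Case mouse. Of the 17 regions of Dapa, 1 had no summit in any Case mouse and 1 had one in all 6.

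**Figure D2:**
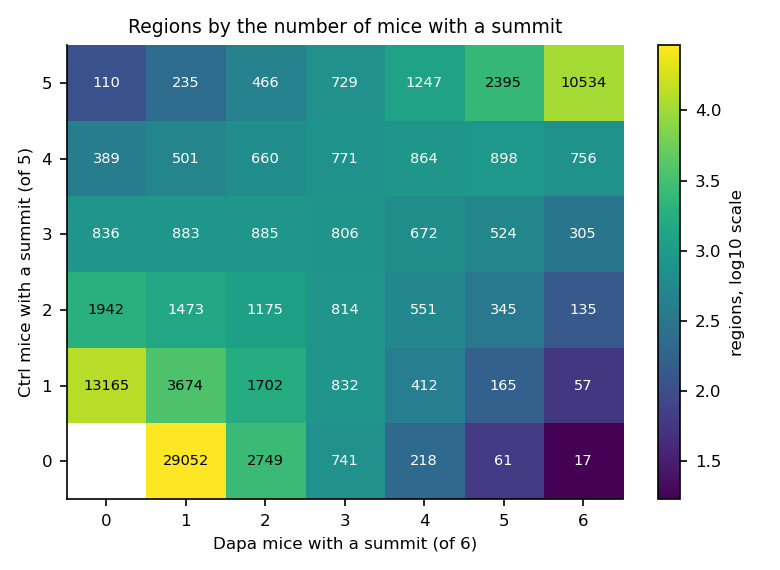
Number of regions by how many Ctrl mice (0 to 5) and how many Dapa mice (0 to 6) had a summit there. Regions in 5 Ctrl and 0 Dapa mice number 110 and regions in 0 Ctrl and 6 Dapa mice 17.

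The 8 strongest of the 17 regions present in every Dapa and no Ctrl mouse lay in or near Ksr2, Trpm4, Crybg2, Gm23497, Actr1a, Rpl13-ps2, Erbb4 and Tmc3. The Ksr2 region (chr5:117443083-117444051, intron, 29379 bp from a transcription start; Ksr2 encodes a scaffold of the Ras pathway that acts in energy balance) stood at percentile 27.6 to 70.1 in Dapa (median 52.2) and had a summit in 2 Case mice. The region 5255 bp from Trpm4, a calcium-activated cation channel gene, stood at 6.37 to 67.8 (median 54.8; chr7:45299644-45300710) and had a summit in 1 Case mouse. The Crybg2 promoter stood at 15.2 to 64.4 and was present in 4 Case mice. The Erbb4 intron region, in the gene of a neuregulin receptor, stood at 15.2 to 61.1 with 1 Case mouse. The region 16661 bp from Tmc3, a gene of the transmembrane channel-like family, stood at 11.4 to 86.2 (chr7:83567982-83568531) and is the 1 of the 17 with no Case mouse. The remaining 3 of these 8 stood at 13.8 to 84.8 (near Gm23497, 4 Case mice), 22.1 to 67.8 (Actr1a intron, 3 Case mice) and 32.3 to 53.7 (Rpl13-ps2, 1 Case mouse). By median these summits stood between 31.5 and 54.8 of their lists, and none was in a Ctrl list.

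The 8 strongest of the 110 regions present in every Ctrl and no Dapa mouse were near Glra3, Gm23859, Gm13801, Gm22421, Mlf1, Gm43718, Sh2d4b and Gm46102. The Glra3 intron region (chr8:56094331-56094867, 154079 bp from a start; Glra3 encodes a glycine receptor subunit) stood at percentile 83.0, 77.5, 57.6, 66.0 and 61.6 in Ctrl 1 to 5 and was present in 4 Case mice. The Mlf1 promoter (chr3:67373757-67374346) stood at 60.1, 75.0, 27.5, 76.9 and 72.1 in Ctrl and was present in 2 Case mice. The Sh2d4b intron region (chr14:40829948-40830507) stood at 28.8 or above in Ctrl (median 63.0), with 4 Case mice. The 1 of these 8 with no Case mouse was the region 19040 bp from Gm43718, at 51.6 to 71.6 in Ctrl. The others stood at 55.5 to 86.9 (Gm23859, 1 Case mouse), 40.0 to 84.5 (Gm13801, 2), 42.1 to 79.7 (Gm22421, 2) and 47.8 to 81.8 (Gm46102, 2). The Gm13801 window has 3 other copies in the genome at 90% identity or more over at least 80% of its length, and the Gm22421 window 1. Whether reads could be placed among them was not tested.

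A further 2 of the 110 were picked after their values had been seen because the genes are known in metabolism or the clock. An intron region of Insr, the insulin receptor gene (chr8:3190992-3191548, 1455 bp from a start), stood at 60.1, 50.6, 47.8, 28.8 and 27.9 in Ctrl and was present in 1 Case mouse. An exon region of Nr1d2, which encodes the clock repressor REV-ERB beta (chr14:18204214-18204762), stood at 17.7 to 66.0 in Ctrl and was present in no Case mouse. Of the 110, 47 were intergenic, 36 intronic, 26 at promoters and 1 in an exon, and of the 17, 6, 6 and 5 were intergenic, intronic and at promoters. The HNF1 letters occurred in 10 of the 110 (9.09%), against 3.66% of all regions tested for presence, and in 1 of the 17. HNF1 is 1 of the 13 motifs counted, and the difference was not tested. The median GC content was 46.3% in the 110 and 51.7% in all regions tested.

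Among the 10534 regions with a summit in all 11 libraries, 1 changed in rank percentile after adjustment (limma with a mean-variance trend, Benjamini-Hochberg adjustment over all 10534), which is 0.00949% of those tested. That count was 79 with normal scores of the percentile, 35 with all 17 libraries in the fit, 2 under 3 other settings and 0 with a GC correction, with the first 14851 summits of each list or without Dapa 7, 9, 10, 11 or 12. At an unadjusted p under 0.05, 664 regions (6.3%) ranked higher and 883 (8.38%) lower in Dapa, 14.7% together. In 103 regions (0.978%) every Dapa mouse ranked above every Ctrl mouse, and in 175 (1.66%) below. The median difference was −0.89 percentile points over all regions fitted, and the median standard error 7.11.

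The direction divided by position in the gene. Of 7367 promoter regions, 320 ranked higher (4.34%) and 756 lower (10.3%), with a median difference of −1.64. Of the 3167 other regions, 344 ranked higher (10.9%) and 127 lower (4.01%), with a median difference of 1.43. Introns had 148 higher and 56 lower of 1598, intergenic regions 177 and 65 of 1366, and exons 19 and 6 of 203. The 2107 regions with the highest GC content (70.1% to 88.6%) had 41 higher and 281 lower, and the 2107 with the lowest (25.9% to 52.7%) had 207 and 121. GC content moved with the calls, and with a GC correction 668 regions ranked higher and 805 lower. With the percentile taken within promoters and other regions apart, 599 ranked higher and 885 lower. Both pairs of counts are over all fitted regions, and the split by position is not given under either setting. Among promoter windows, the SP and KLF letters were in 26.1% of those lower, 13.8% of those higher and 22.2% of all fitted. The CRE letters were in 4.23% of those lower, 2 of the 320 higher and 3.18% of all, and the NRF1 letters in 4.10% of those lower, 1.25% of those higher and 2.51% of all. These motifs are a selection of the 13, and no motif was tested. The CTCF letters went the other way, in 1.32% of those lower, 3.13% of those higher and 1.76% of all. Away from promoters, the HNF1 letters were in 2.91% of the regions that ranked higher, 5.51% of those lower and 5.21% of all.

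**Figure D3:**
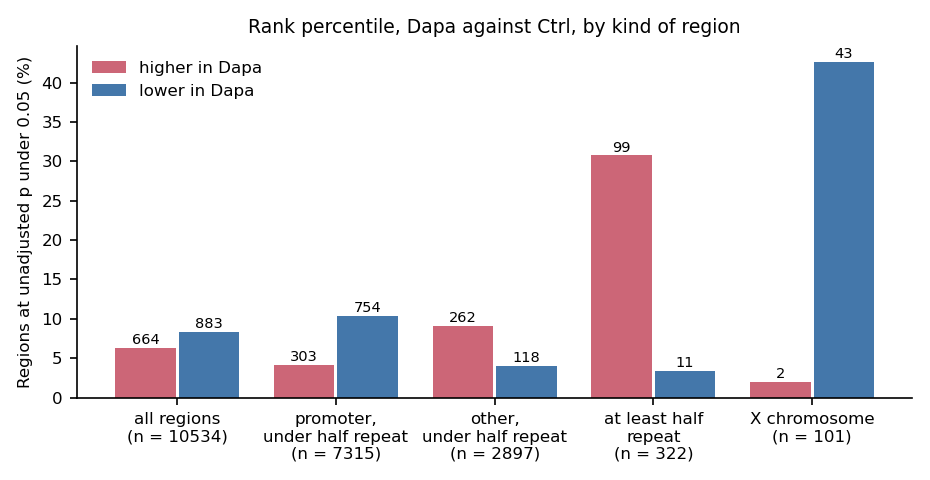
Percent of fitted regions that ranked higher or lower in Dapa than in Ctrl at an unadjusted p under 0.05 (vertical axis, starting at 0), for all regions, promoters and other regions under 50% repeat-masked, regions at least 50% repeat-masked, and the X chromosome. Repeats are called higher in 30.7% and X regions lower in 42.6%, against 6.3% and 8.38% of all regions.

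Regions made of repeats ranked higher in Dapa more often than others. Of 322 regions with at least 50% of the 201 bases around the summit masked as repeat, 99 ranked higher (30.7%) and 11 lower, with a median difference of 3.65. Of the 10212 regions under 50%, 565 ranked higher (5.53%) and 872 lower (8.54%). Without repeats the contrast of position was still there, with 303 higher and 754 lower of 7315 promoters, and 262 and 118 of 2897 other regions. In the first 40 kb with sequence on chromosome 9, near the centromere, all 17 regions had a positive difference, and 10 ranked higher and 0 lower. In the first 300 kb of the Y chromosome 6 of 6 regions ranked higher. These sets were chosen after their values had been seen. The Gm11168 window has 144 other copies by the same measure, and the part of reads placed among copies was not tested. Strain changed with group as well, and the part of strain differences in repeat copies was not tested.

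Regions on the X chromosome ranked lower in Dapa. Of 101 fitted, 43 (42.6%) ranked lower and 2 higher, with a median difference of −15.2, and in 13 every Dapa mouse was below every Ctrl mouse. Summits on the X chromosome among those kept numbered 551, 570, 544, 436 and 526 in Ctrl 1 to 5 and 302 to 547 in Dapa (median 374.5), where Dapa 9 with 547 overlapped with Ctrl and the other 5 lay below every Ctrl mouse. In Case they numbered 330 to 584. On the Y chromosome, the other chromosome that male cells hold in a single copy, the kept summits numbered 91 to 160 in Ctrl and 25 to 153 in Dapa (median 72). By presence, 44 of 203 X regions and 39 of 97 Y regions were less often present in Dapa, against 6.66% of all regions tested. By rank, 6 of 10 fitted Y regions were higher and 0 lower, with a median difference of 3.10. All 6 were the regions of the first 300 kb counted above, each at least 51.7% repeat-masked, and the other Y regions were not called. On autosomes alone, 643 regions ranked higher and 861 lower. The X promoters with the smallest p were Cask, which encodes a membrane scaffold kinase (means 86.8 in Ctrl, 49.3 in Dapa and 63.5 in Case), Dynlt3, a dynein light chain gene (78.1, 49.4 and 38.4), and Zmat1 (93.1, 69.4 and 60.9). Gla, the lysosomal galactosidase gene mutated in Fabry disease, stood at 92.1, 69.0 and 66.9. All 4 were picked after their values had been seen.

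The region that changed lies in an intron of Itgad (ENSMUSG00000070369.13, integrin alpha D, a leukocyte integrin), at chr7:128187456-128188692, 13892 bp from a transcription start. Its percentile was 83.7, 81.2, 80.4, 85.0 and 79.0 in Ctrl 1 to 5 and 93.7 to 99.4 in Dapa (median 98.1), so that every Dapa mouse lay above every Ctrl mouse. It rose by 15.5 ± 1.86 points (SE; limma adjusted p = 0.0116), and in the 6 Case mice it stood at 92.3 to 98.7. The window shown above is 86.6% repeat-masked. The call did not hold without Dapa 7, 9, 10, 11 or 12 (limma adjusted p 0.0599 to 0.103), nor with the first 14851 summits of each list (0.0830) or a GC correction (0.114). A second Itgad intron region, picked after its values had been seen, at chr7:128186560-128187241, stood at a mean of 28.2 in Ctrl and 61.4 in Dapa (unadjusted p = 0.00351 by limma). Most leukocyte markers had no summit at a transcription start in either group, as described below.

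The other 4 regions with the smallest p among those that ranked higher did not pass the adjustment (limma adjusted p = 0.159 each). An intron region of Oxgr1, the gene of the receptor for alpha-ketoglutarate (chr14:120032084-120032923), stood at 68.5, 84.2, 75.1, 82.2 and 87.9 in Ctrl and at 93.1 to 98.3 in Dapa (median 98.2), a difference of 17.7 ± 3.17 (SE). In Case it stood at 89.1 to 98.4. It is a tandem repeat like the Itgad region. The promoter of Tbcd, a tubulin-folding cofactor gene (chr11:121451619-121452292), stood at 50.4, 44.1, 35.3, 48.6 and 57.0 in Ctrl and at 70.1 to 92.5 in Dapa (median 84.9), a difference of 34.9 ± 6.36. In Case the Tbcd promoter spread from 13.2 to 90.8. The Gm11168 region (chr9:3003165-3003694) stood at 86.6 to 92.5 in Ctrl and 94.6 to 98.5 in Dapa, a difference of 7.09 ± 1.31. The region 3097 bp from Gm11684 (chr11:109771270-109771937) stood at 18.1 to 37.4 in Ctrl and 53.1 to 76.3 in Dapa, a difference of 39.2 ± 7.34, and at 58.3 to 83.2 in the 4 Case mice that had it. In all 5 the groups did not overlap.

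The 4 regions with the smallest p among those that ranked lower were at Gm20939, Dcps, Tspan13 and Slc9a2, also at a limma adjusted p of 0.159 each, and in all 4 the groups did not overlap. The Gm20939 promoter (chr17:94864332-94865139) stood at 92.7, 89.4, 86.0, 95.4 and 92.0 in Ctrl and at 12.8 to 65.4 in Dapa (median 44.8), a difference of −47.8 ± 8.04 (SE). An intron region of Dcps, the scavenger decapping enzyme gene (chr9:35166033-35167229), stood at 71.9 to 88.3 in Ctrl and 32.3 to 59.9 in Dapa, a difference of −35.2 ± 6.76. The promoter of Tspan13, a tetraspanin gene (chr12:36042018-36042846), stood at 83.0, 89.6, 82.5, 73.8 and 85.5 in Ctrl and at 5.65 to 59.9 in Dapa (median 32.6). The promoter of Slc9a2, the gene of the sodium/proton exchanger NHE2 (chr1:40680952-40681817), stood at 62.7, 76.8, 79.8, 84.8 and 67.6 in Ctrl and at 4.84 to 49.7 in Dapa, a difference of −43.5 ± 9.10. In Case the means lay between those of Ctrl and Dapa for all 4, at 62.3, 58.3, 57.7 and 55.4, over the Case mice with a summit there.

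**Figure D4:**
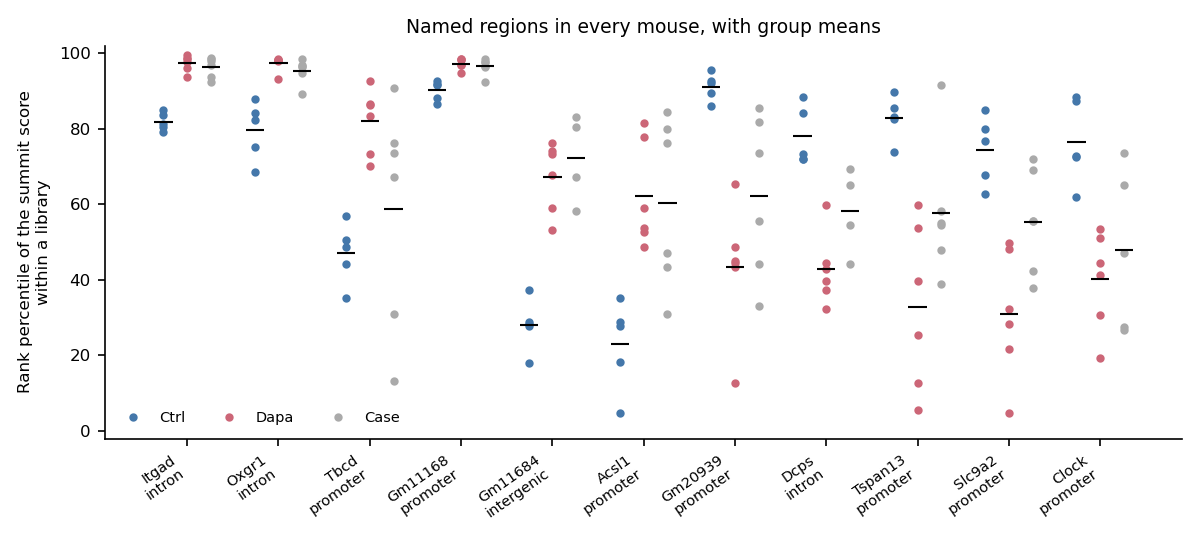
Rank percentile (vertical axis, 0 to 100) of 11 regions in every Ctrl, Dapa and Case mouse with a summit there, with bars at the means. The Itgad and Oxgr1 introns stand above 93 in every Dapa mouse, and the Tspan13, Slc9a2 and Clock promoters stand below 60 in every Dapa mouse.

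Gene lists of kidney cell types and pathways were then read in the same fit. They hold 444 genes, of which 212 had a promoter region with a summit in all 11 libraries, and 9 of these promoters ranked higher and 8 lower at an unadjusted p under 0.05. Against the 4.34% and 10.3% of all promoters, that is 9 and 8 of 212, and no region of a list passed the adjustment. The list medians below stand beside the median of −1.64 over all promoters.

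The proximal tubule transporters had 10 fitted promoters, of which 1 ranked higher and 0 lower, with a median difference of 0.92. Slc34a3, a sodium phosphate cotransporter gene (chr2:25234754-25235321), stood at 72.4, 48.4, 14.3, 63.5 and 63.7 in Ctrl and at 68.0 to 91.5 in Dapa (median 79.9), a difference of 27.4 ± 9.52 (SE; limma unadjusted p = 0.0126, adjusted p = 0.235). Without Ctrl 3 the difference was 17.8 (limma adjusted p = 0.383). The Cubn and Amn promoters, of the receptor pair that takes up filtered protein, stood at means of 46.0 and 80.1 in Ctrl and 66.9 and 88.0 in Dapa and did not pass. Slc22a12, the urate transporter gene, had a summit within 1 kb of a start in 5 Ctrl, 1 Dapa and 2 Case mice, and Slc22a6, the organic anion transporter gene, in 5, 3 and 4. The other way went Slc13a3, a dicarboxylate transporter gene, with 1, 3 and 4, and Slc3a1, a gene of the cystine transporter, with 3, 5 and 5. These 4 were picked after their values had been seen. The drug target Slc5a2 had such a summit in 4 Ctrl, 4 Dapa and 1 Case mice, at percentile 44.6 to 54.9 in Ctrl and 7.77 to 70.5 in Dapa. These summits lay in 3 separate regions. The region 4 bp from a start held them in 3 Ctrl mice (44.6 to 54.9) and 1 Dapa mouse (19.4). Another held them in 3 Ctrl and 2 Dapa mice. The last, with the 70.5, held them in 0 Ctrl and 2 Dapa mice. Slc5a1 had a summit within 1 kb of a start in 3 Ctrl, 3 Dapa and 1 Case mice. Neither gene separated the groups.

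In the other segments of the nephron few promoters were fitted, 4 for the loop and distal tubule and 3 for the collecting duct, and none passed an unadjusted p under 0.05. A Slc12a3 intron region, of the thiazide-sensitive cotransporter gene, stood at 72.3 in Ctrl and 59.4 in Dapa (limma unadjusted p = 0.0703). The Car2 promoter, of a carbonic anhydrase of intercalated cells, stood at 76.3 and 58.7 (limma unadjusted p = 0.0515). Of 12 podocyte genes, 4 had a fitted promoter, with 0 higher and 1 lower, against 4.34% and 10.3% of all promoters. The lower one was that of Cd2ap, which encodes a slit diaphragm adaptor (chr17:42876366-42876996). It stood at 67.7 to 83.6 in Ctrl and 13.8 to 89.6 in Dapa (limma unadjusted p = 0.0491, adjusted p = 0.338), and the groups overlapped.

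Most markers of leukocytes and vessels had no summit at a transcription start in either group. Of 25 leukocyte genes, 0 to 2 had a summit within 1 kb of a start in each Ctrl mouse and 0 to 6 in each Dapa mouse, the 6 being in Dapa 8, and 0 to 10 in Case. Ptprc, Itgam, Cd4 and Adgre1, which define leukocytes, myeloid cells, helper T cells and macrophages, had none in any mouse of the 3 groups; these 4 were picked after their values had been seen. Of the 25, 14 had none in Ctrl or Dapa, and 9 had one in Dapa but not Ctrl mice, in at most 2 Dapa mice each. The remaining 2 were Ikzf1, a lymphoid transcription factor gene, with a summit in 4 Ctrl, 2 Dapa and 0 Case mice, and Coro1a, an actin regulator gene, with one in 1, 3 and 2. Over 21910 protein-coding genes, 36.6% had no summit at a start in Ctrl or Dapa, 4.72% had one in Dapa only and 3.53% in Ctrl only. No leukocyte gene had a fitted promoter of its own, and of 5 fitted regions in the windows of these genes 1 ranked higher, the promoter of Csrnp1 in the window of Cx3cr1 (57.4 in Ctrl and 81.5 in Dapa, limma unadjusted p = 0.00990). Of 16 endothelial genes, each Ctrl mouse had a summit at 2 and each Dapa mouse at 1 or 2, and Robo4, an endothelial receptor gene picked after its values had been seen, had one in 4 Ctrl, 0 Dapa and 1 Case mice. In bulk tissue, fewer cells of a type and lower accessibility per cell cannot be told apart.

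The interferon and antigen presentation list (38 genes) had 11 fitted promoters, with 1 higher and 0 lower and a median difference of 1.96. Irf9, which encodes the DNA-binding part of the interferon complex ISGF3 (chr14:55603780-55604738), stood at 67.6, 76.6, 86.5, 86.7 and 77.5 in Ctrl, at 83.4 to 96.7 in Dapa (median 89.6) and at 76.7 to 92.6 in Case, a difference of 10.6 ± 4.34 (SE; limma unadjusted p = 0.0290, adjusted p = 0.292). The promoters of H2-D1 and B2m, the chains of a class I molecule, stood at means of 92.4 and 64.0 in Ctrl and 96.8 and 79.5 in Dapa and did not pass. A summit near a start was found for 16 to 22 of the genes in Ctrl mice and 19 to 26 in Dapa mice, and the groups overlapped. Of the 38 genes, 8 had one in Dapa but not Ctrl mice and 1 in Ctrl but not Dapa mice. Over all protein-coding genes these shares were 4.72% and 3.53%. Apart from Ifit3 and Ifi35, none of the 8 had one in more than 2 Dapa mice. Ifit3 and Ifi35, both interferon-induced, had such a summit in 0 Ctrl and 4 Dapa mice (4 and 3 Case mice), and Trim30a in 4 Ctrl, 0 Dapa and 3 Case mice. These 3 were picked after their values had been seen. Isg15, an interferon-induced ubiquitin-like modifier gene, had no kept summit in its gene or the 2 kb before it in any Ctrl or Dapa mouse. Btla, an inhibitory lymphocyte receptor gene, had 1 summit, in Dapa 12 at percentile 25.5, and Csf2rb, a cytokine receptor subunit gene, had 1 among Ctrl and Dapa, in Dapa 10 at 37.6, and one within 1 kb of a start in 1 Case mouse.

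The NF-kB and chemokine list had 7 fitted promoters and none passed. A promoter region of Nfkb2, which encodes the p100 subunit, stood at 30.7 in Ctrl and 56.1 in Dapa (limma unadjusted p = 0.0936). A stronger promoter region of the same gene stood at 64.5 and 74.6 (limma unadjusted p = 0.195). Rela, the gene of the main activating subunit and picked after its values had been seen, had a summit near a start in 5 Ctrl, 2 Dapa and 4 Case mice.

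Fatty acid oxidation and PPAR genes had 22 fitted promoters, with 1 higher, 1 lower and a median difference of −0.86, and 28 fitted regions in all, with 3 higher and 1 lower, against 6.3% and 8.38% of all fitted regions. The region with the smallest p is at an internal start of Acsl1, which encodes the enzyme that activates long-chain fatty acids (chr8:46490682-46491340). It stood at 18.2, 4.81, 35.3, 28.8 and 27.9 in Ctrl and at 48.8 to 81.5 in Dapa (median 56.3), with no overlap, a difference of 39.2 ± 9.35 (SE; limma unadjusted p = 0.000976, adjusted p = 0.171). In the 6 Case mice it stood at 30.9 to 84.5. The stronger, upstream promoter of the same gene, picked after its values had been seen, stood at a mean of 96.3 in Ctrl, 95.7 in Dapa and 98.2 in Case, so a single gene held a region that ranked higher and one near the top of the lists in every group. A Hadh intron region, of an enzyme of beta-oxidation, stood at 38.7 in Ctrl and 66.1 in Dapa (limma unadjusted p = 0.0181). The promoter of Angptl4, a PPAR target gene that encodes a lipoprotein lipase inhibitor, stood at 33.7 to 84.0 in Ctrl (mean 68.7) and up to 95.6 in Dapa (mean 88.4; limma unadjusted p = 0.0302), a difference of 19.7 that was 11.0 without Ctrl 5 (limma adjusted p = 0.366). The Acaa1a promoter, of a peroxisomal thiolase, stood at 93.9 and 89.0 (limma unadjusted p = 0.0405). Cd36, the gene of a fatty acid transporter and picked after its values had been seen, had a summit near a start in 4 Ctrl, 1 Dapa and 0 Case mice.

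Among genes of glucose handling, gluconeogenesis and glycolysis had 17 fitted promoters, with 0 higher and 2 lower, beside 10.3% lower over all promoters: Pgk1, a glycolytic enzyme gene on the X chromosome, where 42.6% of regions ranked lower (92.2 in Ctrl, 79.2 in Dapa and 71.1 in Case), and Pfkfb2, which sets the level of a glycolytic activator (97.0, 94.3 and 91.4). A Senp1 promoter region within the window of the glycolytic gene Pfkm also ranked lower (69.5 and 42.1). Insulin and leptin signalling had 20 fitted promoters and 36 fitted regions, of which 3 ranked higher and 0 lower, against 6.3% and 8.38% of all fitted regions. A promoter region of Stat3, the transcription factor downstream of the leptin receptor (chr11:100893341-100893949), stood at 28.9, 44.1, 65.5, 66.0 and 27.9 in Ctrl and at 53.1 to 89.6 in Dapa (median 79.7), a difference of 28.0 ± 9.50 (SE; limma unadjusted p = 0.0109, adjusted p = 0.224). The strongest Stat3 promoter region, picked after its values had been seen, stood at 95.2 and 97 and did not pass. The other 2 were the start shared by Tsc2 and Nthl1 (37.5 and 69.9) and the Tsc1 promoter (63.3 and 78.8), Tsc1 and Tsc2 encoding the complex that restrains mTOR. Case stood at 77.1, 55.3 and 76.6 for these 3. The Akt2 promoter stood at 80.1 and 56.3 (limma unadjusted p = 0.0597) and did not pass. Akt1, picked after its values had been seen, had a summit near a start in 1 Ctrl, 4 Dapa and 3 Case mice.

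Around Lepr itself, the gene mutated in db/db mice, the gene and the 2 kb before it held kept summits in 1 Ctrl mouse (percentile 2.10), all 6 Dapa mice (5.65 to 27.6) and 4 Case mice (3.35 to 33.2). These weak summits lay in 5 separate regions, with at most 2 Dapa mice in any of them, so no region of Lepr separated the groups. Within 5 Mb on either side of the gene, 0 of 55 regions tested for presence were called in either direction (1.22% more often and 6.66% less often over all regions tested), and 1 of 37 fitted regions ranked higher (6.3% over all).

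Of 8 fitted regions of tubular injury genes 1 ranked higher and 1 lower, against 6.3% and 8.38% of all regions. The promoter of Clu, the clusterin gene used as a marker of tubular injury (chr14:65968257-65968887), ranked higher, at 53.9, 69.9, 57.6, 62.9 and 78.9 in Ctrl and 69.9 to 94.1 in Dapa (median 84.7; limma unadjusted p = 0.0113, adjusted p = 0.226). It stood at 55.1 to 94.6 in Case. An intron region of Dcdc2a, a gene of the primary cilium whose window is shown above with HNF1 letters (chr13:25115255-25116426), ranked lower without overlap, at 79.1 to 87.9 in Ctrl and 33.4 to 71.9 in Dapa, a difference of −32.8 ± 7.55 (SE; limma unadjusted p = 0.000734, adjusted p = 0.160). In Case it stood at 65.2 to 90.3. None of the 9 fitted regions of fibrosis and matrix genes passed, among them the promoter of Tgfbr1, a TGF-beta receptor gene (97.6 in Ctrl and 96.7 in Dapa). Among AP-1 and immediate early genes 0 of 15 promoters ranked higher and 1 lower, Klf4 (87.1 and 73.2, limma unadjusted p = 0.0427).

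The core clock gene Clock had the smallest p of any list region. Its promoter (chr5:76304459-76305514) stood at 62.0, 87.3, 72.9, 72.5 and 88.4 in Ctrl and at 19.4 to 53.6 in Dapa (median 42.9), with no overlap, a difference of −36.5 ± 8.07 (SE; limma unadjusted p = 0.000523, adjusted p = 0.159). In the 5 Case mice that had it, it stood at 26.8 to 73.5. A Per2 intron region, of a clock repressor gene, ranked higher (60.7 in Ctrl and 84.5 in Dapa, limma unadjusted p = 0.00376). The promoter of Dbp, a clock output factor gene, stood at 85.1 and 67.6 (limma unadjusted p = 0.0536). These were 1 higher and 1 lower of 30 fitted clock regions. The sources used here give no time of day at which kidneys were taken.

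Among the factors that specify renal epithelium, an intron region of Hnf4a (chr2:163534929-163535606) ranked higher, at 59.5 in Ctrl and 80.2 in Dapa (limma unadjusted p = 0.0224), and one of its relative Hnf4g (chr3:3613130-3614119) lower, at 77.2 and 59.4 (limma unadjusted p = 0.0476). In Case they stood at 76.9 and 54.7. In the renin-angiotensin and hypoxia list, 1 of 14 promoters ranked lower, that of Egln2, an oxygen-sensing prolyl hydroxylase gene (85.1 and 71.3, limma unadjusted p = 0.0291). Car9, a hypoxia-induced carbonic anhydrase gene picked after its values had been seen, had a summit near a start in 4 Ctrl, 0 Dapa and 2 Case mice. Of 15 fitted promoters of NRF2 antioxidant genes, none passed. Oxidative phosphorylation genes had 2 higher and 1 lower of 25 promoters: Uqcrc2 (76.0 and 88.0) and Uqcrc1 (84.5 and 93.7), core subunits of complex III, higher, and Atp5c1 (91.0 and 74.0), an ATP synthase subunit, lower. Without Ctrl 3 the Uqcrc1 difference was 5.32 in place of 9.25 (limma adjusted p = 0.540), and without Dapa 9 that of Atp5c1 was −10.4 in place of −16.9 (limma adjusted p = 0.318). Housekeeping genes, listed for comparison, had 1 higher (Polr2a, 78.3 and 88.1) and 1 lower (Pgk1, which the glycolysis list also holds) of 16, and the Pdcd2 promoter, in the window of the housekeeping gene Tbp, also ranked lower (92.2 and 83.7).

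**Figure D5:**
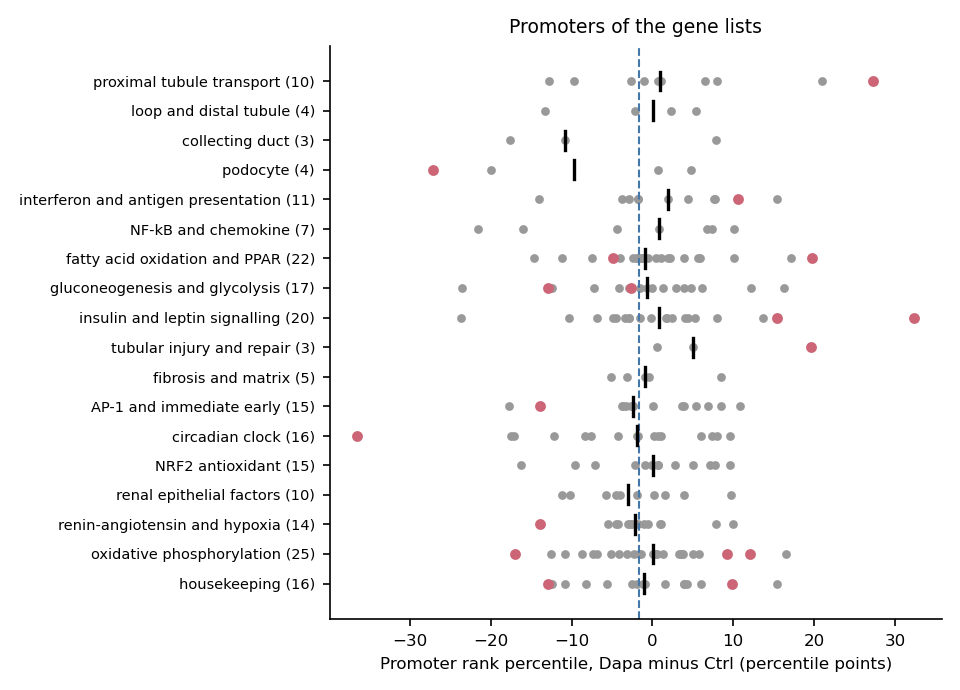
Difference in rank percentile (Dapa minus Ctrl) of the fitted promoter of each list gene, by list; red points have an unadjusted p under 0.05, black bars are list medians, and the dashed line is the median of all promoters (−1.64). Of 212 promoters, 9 are called higher and 8 lower.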

How the data were processed

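Cells from whole mouse kidney were transposed with a TruePrep kit, and, per the labels and the study's methods, the authors aligned reads to mm10 with Bowtie2 within the ENCODE pipeline. Duplicate reads and blacklist regions had been taken out before MACS2 was run on every library; DiffBind and HOMER are also named, and the versions of Bowtie2, MACS2 and DiffBind are not given in the sources used here. The authors deposited summit lists scored by −log10 of a p- or q-value; which of them is not given. No counts were used, so DiffBind's test was not run and scores served as ranks only.

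The 29702 top summits per library were kept, the length of the shortest list of the series, that of a Case mouse; ties at the lowest kept score were broken in a seeded random order (keeping file order was tried after seeing the data). Summits were extended by 250 bp and merged. Presence was tested with Fisher's exact test, adjusted over regions able to reach p under 0.05, and rank percentile with limma 3.58.1 (R 4.3.3; trend, Benjamini-Hochberg), a step tested on simulated data; single values by exact permutation. Nothing in the labels gives a batch, and whether mice were processed apart is not stated, so p-values measure the spread between these samples. No 2 lists were identical. Promoters lie within 1 kb of a transcript start of GENCODE M21. A region is named by a gene with a start within 1 kb (protein-coding first), else by the gene it lies in, else by the nearest start. Regions named are the 5 with the smallest p in each direction, the 8 with the highest mean percentile among those separated in each direction, up to 4 of each list, and Slc5a2, Slc5a1, Isg15, Btla, Csf2rb and Lepr; others are said to be picked later. Of the 5 that ranked lower, 1 is not reported here, nor is the full strain name. The comparison, its members and the gene lists were chosen with earlier results of these data known. Alternatives were list length, extension, autosomes, promoter distance, ties, leaving out each mouse, the set of regions fitted, normal scores, the trend, percentiles within class, GC correction and a fit with Case.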

Additional observations from a re-analysis of the deposited data

Results flagged for a closer look

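In total, 5 of 86 groups of mice had 1 mouse far from the others by Dixon's test, which chance gives in about 1 in 20 groups. The first 2 were in the median GC content around the summit: Ctrl 4 at 55.22% with the other Ctrl mice at 54.73%, and Dapa 8 at 56.22% with the other Dapa mice at 54.23% to 54.73%. Dapa 8 was also the lowest Dapa mouse in the Oxgr1 intron region, at percentile 93.11 against 97.95 to 98.33 in the others. Ctrl 5 stood at 33.72 in the Angptl4 promoter against 73.22 to 84.03 in the other Ctrl mice. Dapa 7 stood at 56.79 in the Egln2 promoter against 72.02 to 75.66 in the other Dapa mice.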

How the results depend on the processing

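With the first 14851 summits of each list, 332 regions were less often present in Dapa, 53 were in every Ctrl and no Dapa mouse, and by rank 0 passed the adjustment, 356 were higher and 479 lower. With every deposited summit, 75 were more often present and 8 in every Dapa and no Ctrl mouse, and 4 differences changed sign: promoter share 0.674, intronic share −0.4035, intergenic share −0.3211 and GC content 0.663; the private share was 2.46 (3.62 with the first 14851); 29.3% of calls by rank were then higher, against 42.9%. Summits extended by 100 bp left 10 regions in every Dapa and no Ctrl mouse. Regions past the adjustment by rank numbered 0 with a GC correction, 2 without the trend, 2 with percentiles within class, 79 with normal scores, 35 with all 17 libraries (576 lower, on fewer regions fitted) and 2 over regions in at least 8 libraries (1059 higher, 1718 lower). The causes were not tested. Leaving out each mouse in turn gave 204 to 258 regions more often and 854 to 1516 less often present (1139 without Dapa 11), 22 to 33 in every Dapa and no Ctrl mouse, 131 to 305 in every Ctrl and no Dapa mouse (174 without Dapa 11, 173 without Dapa 7), and 0 to 1 past the adjustment, with 579 to 739 higher and 617 to 1073 lower. The promoter share differed by −2.256 to −1.497 and the share of private summits by 6.33 to 9.20, both at an adjusted p of 0.0476 by the exact permutation test without Dapa 11. The Itgad region had adjusted p-values of 0.000132 to 0.114 over 23 alternatives, 16 of them under 0.05. No region passed by presence (Fisher's exact test) under any alternative. No paired analysis was possible because the Ctrl and Dapa mice share no replicate numbers.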
